A study of Mus musculus with 6 samples.

Results

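Immediate early and serum response genes were compared between E10 eye tissue of wild-type (WT) mouse embryos and of *Rdh10* KO embryos, with 3 RNA-seq libraries in each group and 3 pooled embryos in each library. The 41 genes were chosen by name, as members of the AP-1, EGR, NR4A, KLF, IER, DUSP and other rapid response families, and all 41 were found among the 26437 genes of the deposited table. They and the lists used further on were chosen with earlier results of these data known. Their shares beside those of all genes are therefore a description only. *Rdh10* KO embryos are homozygous for a null allele of the retinol dehydrogenase that makes retinaldehyde, the precursor of retinoic acid (RA), and the gene is lost in every tissue of the embryo, not in the eye alone. The mice of both groups were of an outbred Black Swiss and C57BL/6 background, no sex or litter is given for a pool, no other allele or agent is named, and the dissected piece was the front of the head, with both optic vesicles, facial mesenchyme and some forebrain.

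Immediate early genes are switched on within minutes of a stimulus, from transcription factors that already wait in the cell, and so need no new protein. Kinases of the MAPK cascade, the actin route to SRF (serum response factor), calcium and cyclic AMP acting through CREB, and mechanical tension all feed into them. Many of their mRNAs are short lived, and their products are transcription factors, phosphatases and RNA-binding proteins that shape the later response and shut the first one off.

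The table holds normalized counts, that is, reads on a gene divided by 1 size factor for its library. The libraries held 16392777 to 27101025 reads on genes, and 3 reads, taken here as the limit of detection, were worth 2.15 to 3.53 normalized counts. A gene was called where limma with Benjamini–Hochberg adjustment over all 22921 genes tested gave both an adjusted p under 0.05 and a change of over 0.85 on the log2 scale, the cut-off that the study used. All 41 genes passed the filter on low values, a mean above 0.5 over the 6 libraries. *Rdh10* itself was at 399, 342 and 381 normalized counts in the WT libraries and at 183, 142 and 181 in the *Rdh10* KO libraries. For a single gene, the exact two-sided permutation test over 3 against 3 libraries cannot give a p below 0.1. Markers of the optic vesicle, facial mesenchyme, forebrain and surface ectoderm were present in every library. The libraries hold a mixture of cell types, so more cells of a type and more RNA in each cell cannot be told apart in any value given here.

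The short promoter stretches below show the letters through which the best known of these signals act, in genes whose values follow. RefSeq promoters (GRCm38.p6, 250 bases before to 50 after a start) were found for 31 of the 41 genes, *Cyr61* among them under its other symbol *Ccn1*. Capitals mark a CArG box, the site of SRF, in *Srf* and *Egr2*, a cyclic AMP response element (CRE, TGACGTCA) in *Maff*, *Dusp1* and *Btg2*, and the composite ATF and CHOP element (TGATGNAA, here on the opposite strand) in *Atf3*. Each is printed 5′ to 3′ in the direction of transcription.
Srf, chr17:46556176-46556295, minus strand: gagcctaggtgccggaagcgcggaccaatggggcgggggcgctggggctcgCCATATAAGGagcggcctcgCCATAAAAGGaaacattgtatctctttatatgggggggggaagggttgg
Egr2, chr10:67537742-67537861, plus strand: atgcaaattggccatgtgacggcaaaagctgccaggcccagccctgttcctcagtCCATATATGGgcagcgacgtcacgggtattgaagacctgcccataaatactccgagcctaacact
Egr2, chr10:67537439-67537558, plus strand: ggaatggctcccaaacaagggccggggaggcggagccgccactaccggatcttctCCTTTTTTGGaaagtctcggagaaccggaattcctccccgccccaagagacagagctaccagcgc
Maff, chr15:79347400-79347519, plus strand: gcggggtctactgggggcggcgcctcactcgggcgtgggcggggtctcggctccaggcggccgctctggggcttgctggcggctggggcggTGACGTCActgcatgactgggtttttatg
Dusp1, chr17:26508552-26508671, minus strand: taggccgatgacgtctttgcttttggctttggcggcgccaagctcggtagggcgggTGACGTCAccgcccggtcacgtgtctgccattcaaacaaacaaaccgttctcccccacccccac
Btg2, chr1:134079258-134079377, minus strand: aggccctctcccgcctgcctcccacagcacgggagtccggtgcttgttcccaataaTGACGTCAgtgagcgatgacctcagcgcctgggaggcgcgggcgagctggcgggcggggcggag
Atf3, chr1:191183380-191183499, minus strand: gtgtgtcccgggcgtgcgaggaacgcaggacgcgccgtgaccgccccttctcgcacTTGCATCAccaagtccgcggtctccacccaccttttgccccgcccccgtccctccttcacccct

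Both strands of each window were searched. A CArG box lay in the windows of 4 of the 31 genes (12.9%), *Dusp5*, *Egr2*, *Srf* and *Zfp36*, against 1.81% of the 27025 genes with a RefSeq promoter and 1.69% of the 13351 among them that were tested here. In *Srf* the boxes began 82 and 62 bases before the start, and in *Zfp36* the single box began 58 bases before it. The CRE lay in 3 genes (9.68%, against 2.03% of all genes and 3.25% of those tested), and began 29 bases before the start in *Maff*, 143 in *Dusp1* and 166 in *Btg2*. The EGR site (GCGNGGGCG) was the one found most often, in 12 genes (38.7%, against 6.27% of all genes and 11.1% of those tested here). Of these, *Fosl2*, *Maff*, *Nr4a1* and *Zfp36* were called higher in *Rdh10* KO and *Klf2* lower. The others, *Btg2*, *Dusp2*, *Fosb*, *Klf4*, *Mafk*, *Nr4a2* and *Srf*, did not pass the test. The AP-1 site (TGANTCA) lay in *Csrnp1* and *Zfp36l1* (6.45%, against 8.97% of all genes and 6.70% of those tested), the ATF and CHOP element in *Atf3* alone (3.23%, against 4.51% and 2.83%), and the NR4A site (AAAGGTCA) in 0 of the 31, against 1.70% and 1.35%. Genes with the same letters did not move alike. *Maff* was called higher in *Rdh10* KO, *Dusp1* rose less, and *Btg2*, which also holds a CRE, had a log2 fold change of -0.19 and did not pass the test.

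Of the 41 genes, 11 were called higher in *Rdh10* KO (26.8%), against 2.41% of all genes tested, and 1 was called lower, against 0.886%. The 11 were *Egr2*, *Ier3*, *Fos*, *Atf3*, *Maff*, *Fosl2*, *Egr1*, *Nr4a1*, *Per1*, *Zfp36* and *Ctgf*, and the gene called lower was *Klf2*. *Egr2*, with 0 reads in every WT library, passed the filter on low values only through *Rdh10* KO and could not have been called lower. Of the 38 genes above the limit of detection in WT, 10 were called higher (26.3%) and 1 lower. With an adjusted p under 0.05 and no cut-off on the fold change, 18 genes were higher (10.3% of all genes) and 5 were lower (9.12% of all genes), which left 18 that did not pass. Every *Rdh10* KO library lay above every WT library for 21 of the 41, against 17.6% of all genes, and below for 6, against 17.0%. The median log2 fold change of the 41 was 0.39, against 0.0036 for all genes tested, and it was 0.38 with *Egr2* set at its bound and *Egr3* and *Fosl1*, which are at the limit of detection in both groups, left out. The edgeR quasi-likelihood test on the recovered reads called 11 higher and 1 lower as well. Limma without its intensity trend called 6 higher (*Egr2*, *Ier3*, *Atf3*, *Nr4a1*, *Per1* and *Ctgf*) and 0 lower, with 20 higher and 4 lower at an unadjusted p under 0.05.

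**Figure D1:**
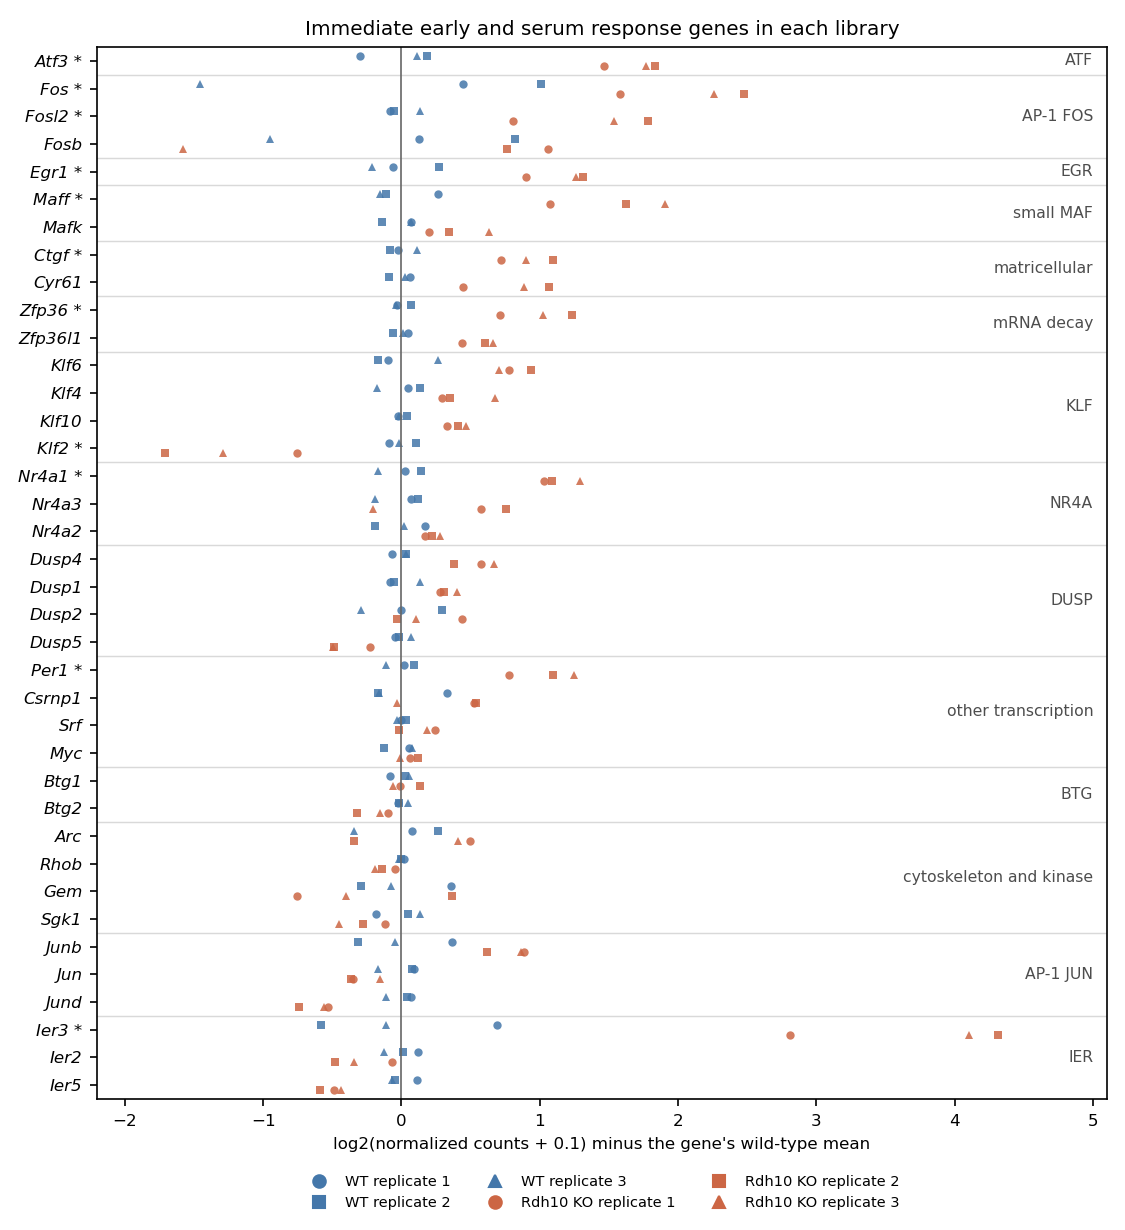
Each point is 1 library, and its place along the horizontal axis is log2(normalized counts + 0.1) minus the mean of the WT libraries for that gene, for the 38 genes above the limit of detection in WT, by subfamily. Asterisks mark the genes past both thresholds, for which the *Rdh10* KO points (orange) lie apart from the WT points (blue).

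Of the AP-1 genes, 2 of the 4 FOS genes rose and 2 did not pass the test, while of the 3 JUN genes 1 rose and 2 were lower at an adjusted p under 0.05. FOS proteins have to pair with a JUN protein to bind DNA. *Fos*, the archetype of immediate early genes (chromosome 12, 85473890 to 85477273, plus strand, GRCm38), was low in WT, at 14.3, 21.1 and 3.76 normalized counts, and was at 31.5, 58.7 and 50.6 in *Rdh10* KO. The groups did not overlap, the log2 fold change was 2.11 ± 0.54 (SE, n = 3 per group, limma, adjusted p = 0.0141), and the call was lost without *Rdh10* KO replicate 2 or 3 (adjusted p up to 0.0802). Without WT replicate 3, its lowest library, the log2 fold change was 1.38 ± 0.38 (adjusted p = 0.0359 by limma). *Fosl2*, which encodes the FOS relative FRA2, was at 83.9, 85.7 and 97.8 in WT and at 155, 306 and 258 in *Rdh10* KO. Its lowest *Rdh10* KO library lay well above the highest WT library, with a log2 fold change of 1.37 ± 0.21 (limma, adjusted p = 0.000600). *Fosb* had at most 7.88 normalized counts in any library and a log2 fold change of 0.08 ± 0.89, and *Fosl1* stayed within the limit of detection in both groups, so no fold is given for it.

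*Jund*, the most abundant of the 41 in WT per exon length (chromosome 8, 70698949 to 70700616, plus strand), encodes the JUN protein that resting cells hold. It was at 3063, 3001 and 2696 normalized counts in WT and at 2016, 1745 and 1978 in *Rdh10* KO, and so fell by 0.61 ± 0.08 on the log2 scale (limma, adjusted p = 0.000170). *Jun* was at 1334, 1320 and 1111 in WT and at 983, 970 and 1122 in *Rdh10* KO. Here *Rdh10* KO replicate 3 lay above WT replicate 3, so the groups overlapped, and an adjusted p of 0.0417 (limma) stood beside an exact permutation p of 0.2 for a log2 fold change of -0.29 ± 0.09. *Junb*, the growth-restraining member of the family, went the other way. Its values were 125, 77.9 and 94.0 in WT and 180, 149 and 176 in *Rdh10* KO, a log2 fold change of 0.79 ± 0.19 (limma, adjusted p = 0.00882) that lies under the cut-off. It was past the cut-off without WT replicate 1 or *Rdh10* KO replicate 2, and not past the test without WT replicate 2 (adjusted p = 0.0589 by limma). *Jun* no longer passed the test in 4 of 6 fits that left out 1 library (adjusted p up to 0.188 by limma), with log2 fold changes from -0.38 to -0.24 over the 6 fits. Exons of all 3 JUN genes overlap exons of a gene on the opposite strand (*Junos*, *Prdx2* and *Gm11175*), and the strand setting of the counting is not given in the sources used here, so reads of the 2 genes cannot be told apart. Exons of *Fosl1*, *Dusp1*, *Dusp5*, *Ctgf*, *Zfp36*, *Zfp36l1*, *Mafk* and *Csrnp1* overlap in the same way.

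*Atf3* encodes a stress-induced bZIP factor that pairs with JUN proteins. It was at 64.5, 90.1 and 85.6 normalized counts in WT and at 218, 283 and 271 in *Rdh10* KO. The *Rdh10* KO libraries stood close together and apart from WT, and the log2 fold change was 1.69 ± 0.17 (limma, adjusted p = 2.88e-05).

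The small MAF factors have no activation domain of their own. *Maff*, whose promoter is shown above with its CRE, was at 126, 96.8 and 94.0 in WT and at 221, 323 and 393 in *Rdh10* KO, with a log2 fold change of 1.54 ± 0.20 (limma, adjusted p = 0.000152). *Mafk* was at 220, 190 and 219 in WT and at 240, 266 and 325 in *Rdh10* KO. These groups did not overlap either, but the adjusted p was 0.0636 (limma) for a log2 fold change of 0.39 ± 0.14.

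The EGR zinc finger factors are direct targets of SRF and its ELK partners. *Egr1* was at 46.0, 57.9 and 41.4 normalized counts in WT and at 89.5, 119 and 115 in *Rdh10* KO, a log2 fold change of 1.16 ± 0.22 (limma, adjusted p = 0.00210). *Egr2*, the hindbrain and Schwann cell factor, had 0 reads in all 3 WT libraries and 2.86, 3.20 and 9.41 normalized counts in *Rdh10* KO. Set against a limit of 3 reads in each WT library, the *Rdh10* KO mean was at least 1.68-fold higher, and the call was lost without *Rdh10* KO replicate 3 (adjusted p = 0.0953 by limma), the library that held the highest value. It was also lost with DESeq2, which gave *Egr2* no adjusted p. *Egr3* had no more than 1.18 normalized counts in any library.

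The NR4A orphan nuclear receptors act without a ligand and are set by their amount. *Nr4a1* was at 107, 117 and 94.0 in WT and at 216, 225 and 259 in *Rdh10* KO, with tight groups and a log2 fold change of 1.14 ± 0.15 (limma, adjusted p = 0.000186). *Nr4a2*, the NR4A gene with the highest WT level, was at 169, 131 and 152 in WT and at 169, 175 and 182 in *Rdh10* KO. The groups just missed each other, and the adjusted p was 0.332 (limma) for a log2 fold change of 0.22 ± 0.15. *Nr4a3* had a log2 fold change of 0.38 ± 0.26 (limma, adjusted p = 0.353), with overlapping groups.

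Within the IER group, named for early induction and not for a shared protein family, *Ier3* rose, *Ier5* fell and *Ier2* did not pass the test. *Ier3* (chromosome 17, 35821684 to 35822923, plus strand), which encodes a small regulator of ERK and NF-κB signalling and of cell survival, was at 37.9, 15.6 and 21.6 normalized counts in WT and at 164, 467 and 402 in *Rdh10* KO. Even the lowest *Rdh10* KO library lay far above the highest WT library, and the log2 fold change of 3.74 ± 0.37 (limma, adjusted p = 2.21e-05) was the largest among the genes detected in WT. *Ier5*, a partner of the heat shock factor HSF1, was at 700, 629 and 620 in WT and at 463, 432 and 479 in *Rdh10* KO, and fell by 0.50 ± 0.09 on the log2 scale (limma, adjusted p = 0.00208). *Ier2*, the most abundant of the group, was at 1702, 1580 and 1438 in WT and at 1500.1, 1124 and 1240.1 in *Rdh10* KO. Its groups overlapped and its adjusted p was 0.0594 (limma), for a log2 fold change of -0.30 ± 0.10.

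**Figure D2:**
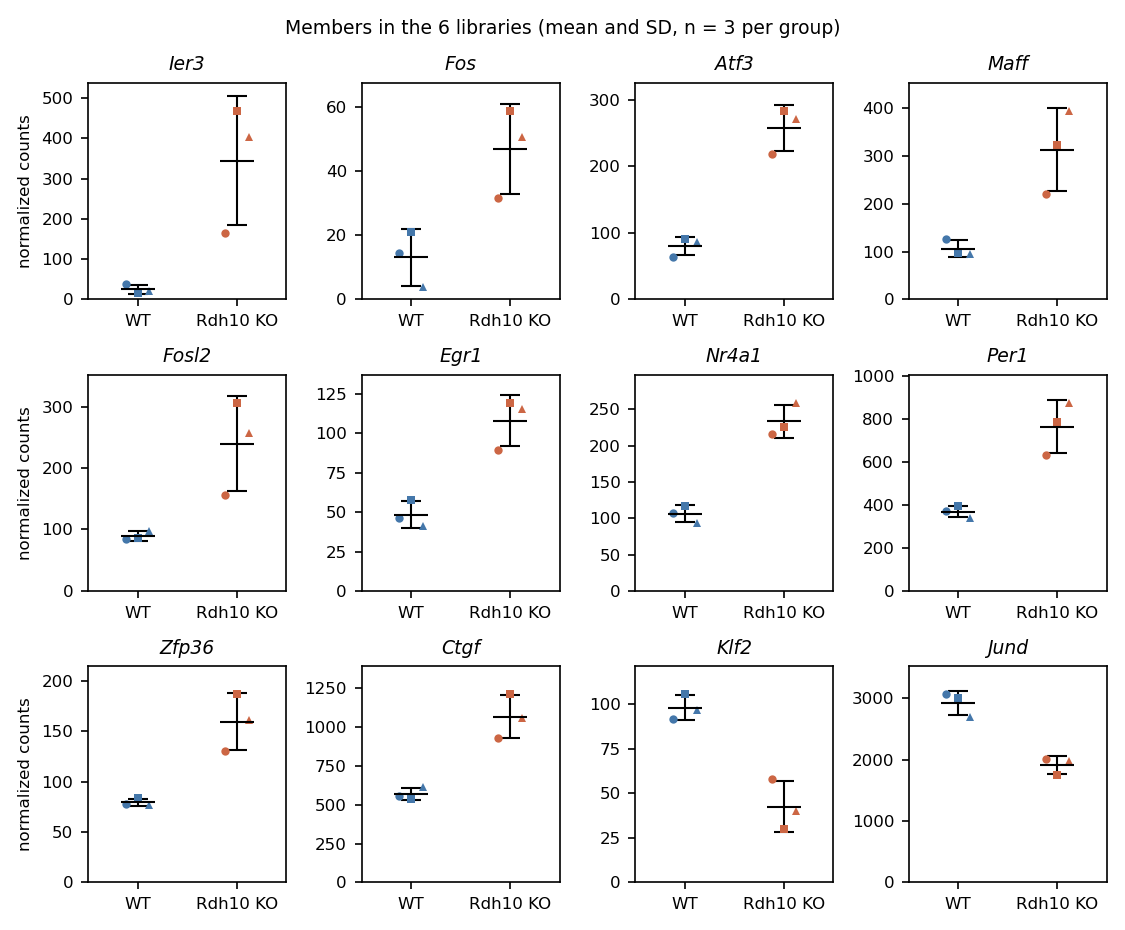
Normalized counts (vertical axes, each from 0) of 12 genes in the WT (blue) and *Rdh10* KO (orange) libraries, with the mean and SD of each group in black and a marker shape for each replicate number. *Rdh10* KO replicate 1 (circle) is the lowest of its group for all 10 genes shown that rose.

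The KLF group held the one gene called lower. *Klf2*, the flow-responsive factor of endothelial cells (chromosome 8, 72319033 to 72321656, plus strand), was at 92.1, 106 and 96.9 normalized counts in WT and at 58.0, 29.9 and 40.0 in *Rdh10* KO. The *Rdh10* KO mean was 43.4% of the WT mean, a log2 fold change of -1.25 ± 0.25 (limma, adjusted p = 0.00335). The 8 endothelial marker genes summed to 3781 to 4238 in WT and to 5128 to 5483 in *Rdh10* KO. At an adjusted p under 0.05, 4 of 8 were higher and 0 lower, against 17.4% in each direction among genes with a WT mean above 100. *Tek*, *Emcn*, *Egfl7* and *Esam* did not pass the test. The part of endothelial cells in the value of *Klf2* was not tested.

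*Klf6*, the KLF gene with the highest WT level, was at 828, 789 and 1063 in WT and at 1514, 1695 and 1445 in *Rdh10* KO, a log2 fold change of 0.81 ± 0.11 (limma, adjusted p = 0.000203) just under the cut-off, and past it without WT replicate 3 or *Rdh10* KO replicate 3. *Klf10*, an early target of TGFβ, was at 366, 384 and 368 in WT and at 468, 494 and 515 in *Rdh10* KO (log2 fold change 0.40 ± 0.10, limma, adjusted p = 0.00947). *Klf4* was at 44.0, 46.7 and 37.6 in WT and at 52.3, 54.4 and 68.2 in *Rdh10* KO. Although its groups did not overlap, *Klf4* did not pass the test (log2 fold change 0.44 ± 0.24, limma, adjusted p = 0.244).

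The feedback genes, which end the response, included members on both sides. DUSP phosphatases remove the activating phosphates from MAP kinases. *Dusp4*, the most abundant of the 4, was at 500.3, 539 and 538 normalized counts in WT and at 781, 685 and 837 in *Rdh10* KO (log2 fold change 0.54 ± 0.10, limma, adjusted p = 0.00148). *Dusp1* was at 298, 304 and 345 in WT and at 382, 390.4 and 415 in *Rdh10* KO (0.33 ± 0.11, limma, adjusted p = 0.0450). *Dusp5*, which acts on ERK in the nucleus, was at 278, 284 and 301 in WT and at 246, 205 and 204 in *Rdh10* KO (-0.40 ± 0.12, limma, adjusted p = 0.0330). All 3 had separate groups, and *Dusp2* did not pass (0.17 ± 0.23). In 5 of 6 fits that left out 1 library *Dusp1* and *Dusp5* did not pass the test either (limma adjusted p up to 0.168 and 0.117), although the log2 fold changes stayed between 0.29 and 0.40 for *Dusp1* and between -0.49 and -0.36 for *Dusp5*.

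*Zfp36* and *Zfp36l1* encode proteins that bind AU-rich elements and bring the mRNAs that carry them to decay. *Zfp36* was at 77.8, 83.5 and 77.1 in WT and at 130.3, 187 and 161 in *Rdh10* KO, a log2 fold change of 0.99 ± 0.18 (limma, adjusted p = 0.00155). *Zfp36l1* (chromosome 12, 80107754 to 80113013, minus strand) was at 3562, 3318 and 3488 in WT and at 4688, 5254 and 5464 in *Rdh10* KO, 0.57 ± 0.07 on the log2 scale (limma, adjusted p = 0.000142). Both genes of the pair rose with separate groups, the scarce one by more than the abundant one. Their target letters are common among the 41. The AU-rich heptamer TATTTAT occurs in the longest annotated 3′ untranslated region of 25 of the 41 genes (61.0%), against 29.2% of 16217 tested genes and 25.5% of genes with regions of like length, and the nonamer TTATTTATT in 8 (19.5%, against 7.97%). The heptamer was present in *Ier3*, *Fos*, *Atf3*, *Maff*, *Fosl2* and *Zfp36*, was absent from *Egr1*, *Egr2*, *Nr4a1*, *Per1* and *Ctgf*, and was present in *Jund*, *Jun* and *Klf2* too, so genes with it were found among those that rose and those that fell.

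The BTG genes encode antiproliferative adaptors of mRNA deadenylation, and neither passed the test. *Btg2* was at 851, 855 and 895 in WT and at 812, 692 and 779 in *Rdh10* KO, with separate groups and an adjusted p of 0.154 (limma), and *Btg1* had a log2 fold change of 0.02 ± 0.08.

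The matricellular genes *Ctgf* and *Cyr61* are targets of SRF and of YAP with TEAD factors, and encode secreted proteins that modify cell adhesion. *Ctgf* was at 558, 535 and 614 normalized counts in WT and at 934, 1213 and 1060.1 in *Rdh10* KO, a log2 fold change of 0.90 ± 0.10 (limma, adjusted p = 6.58e-05). *Cyr61* was at 491, 441 and 478 in WT and at 640.1, 981 and 868 in *Rdh10* KO, a log2 fold change of 0.80 ± 0.13 (limma, adjusted p = 0.000852). The groups were separate for both genes, which lay on either side of the cut-off. *Ctgf* was at 0.81 and under it without *Rdh10* KO replicate 2, and *Cyr61* was past it without *Rdh10* KO replicate 1.

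Among the other transcriptional regulators, *Per1*, a clock gene that cyclic AMP and glucocorticoids induce, was at 372, 393 and 341 in WT and at 631, 787 and 875 in *Rdh10* KO (log2 fold change 1.04 ± 0.12, limma, adjusted p = 6.72e-05). *Srf*, the factor for which the serum response is named, was at 1438, 1473 and 1404 in WT and at 1703, 1418 and 1635 in *Rdh10* KO, overlapping groups with a log2 fold change of 0.14 ± 0.08 (limma, adjusted p = 0.292). *Myc* had a log2 fold change of 0.06 ± 0.09 and *Csrnp1* of 0.34 ± 0.18, neither past the test. None of the 4 genes that act on the cytoskeleton, membrane or ion transport passed it. *Rhob*, an endosomal small GTPase and the most abundant of these, was at 2221, 2186 and 2162 in WT and at 2118, 1988 and 1921 in *Rdh10* KO, with separate groups (log2 fold change -0.12 ± 0.07, limma, adjusted p = 0.249). The kinase gene *Sgk1* (-0.28 ± 0.14), the GTPase gene *Gem* (-0.26 ± 0.29) and the synaptic gene *Arc* (0.19 ± 0.38) had overlapping groups.

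Levels between genes were compared as FPKM, computed here from the recovered reads and the summed exon length. In WT the order began with *Jund* at 89.5 ± 6.04 FPKM (SD, n = 3), *Zfp36l1* at 59.1 ± 2.26, *Ier2* at 52.8 ± 4.497, *Rhob* at 47.6 ± 0.710 and *Srf* at 25.4 ± 0.583, and ended with *Fosb*, *Fosl1*, *Egr3* and *Egr2*, all below 0.05. Of the 40 pairs of neighbours in this order, 11 had separate WT values and 29 overlapped. *Jund* and *Zfp36l1* were separate, whereas *Zfp36l1* and *Ier2* were not. In *Rdh10* KO, *Zfp36l1* came first at 88.2 ± 7.01 FPKM and *Jund* second at 58.9 ± 5.16. *Ier3* moved from place 31 (1.13 ± 0.523 FPKM) to place 10 (15.6 ± 7.16 FPKM), and *Klf2* from place 21 to place 33.

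The genes called higher were mostly not those with the most mRNA in WT. Above 10 FPKM in WT, 1 of 13 genes was called higher (*Ctgf*), 0 lower by limma and by the edgeR quasi-likelihood test, and at an adjusted p under 0.05 alone 4 were higher and 3 lower (*Jund*, *Jun* and *Ier5*). At an unadjusted p under 0.05, 5 of the 13 were lower. Of the 5121 genes tested in this range, 0.742% were called higher, 11.0% were higher and 28.3% lower at an adjusted p under 0.05, and 2000 were lower at an unadjusted p under 0.05, with a median log2 fold change of -0.11. The share of abundant members that were lower (23.1%) was thus not above that of all genes of like level. Between 1 and 10 FPKM, 6 of 18 were called higher and 1 lower, against 2.70% and 1.17% of all genes. At or below 1 FPKM, 4 of 10 were called higher and 0 lower by both tools (also 0 at an unadjusted p under 0.05), against 3.04% of all genes called higher and 0.886% lower. *Egr2*, 1 of these 4, passed the filter on low values only through *Rdh10* KO. Because *Egr2*, *Egr3* and *Fosl1* were within the limit of detection in WT, a fall could not be seen in them. The split by normalized counts gave 4 of 24 called higher above a WT mean of 100, 6 of 13 between 10 and 100, and 1 of 4 (*Egr2*) at or below 10, against 2.004%, 5.35% and 1.42% of all genes. Fold changes are on the log2(value + 0.1) scale, on which the standard error was 0.89 for the scarce *Fosb* and 0.08 for the abundant *Jund*, and whether the fold change differs by level was not tested.

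**Figure D3:**
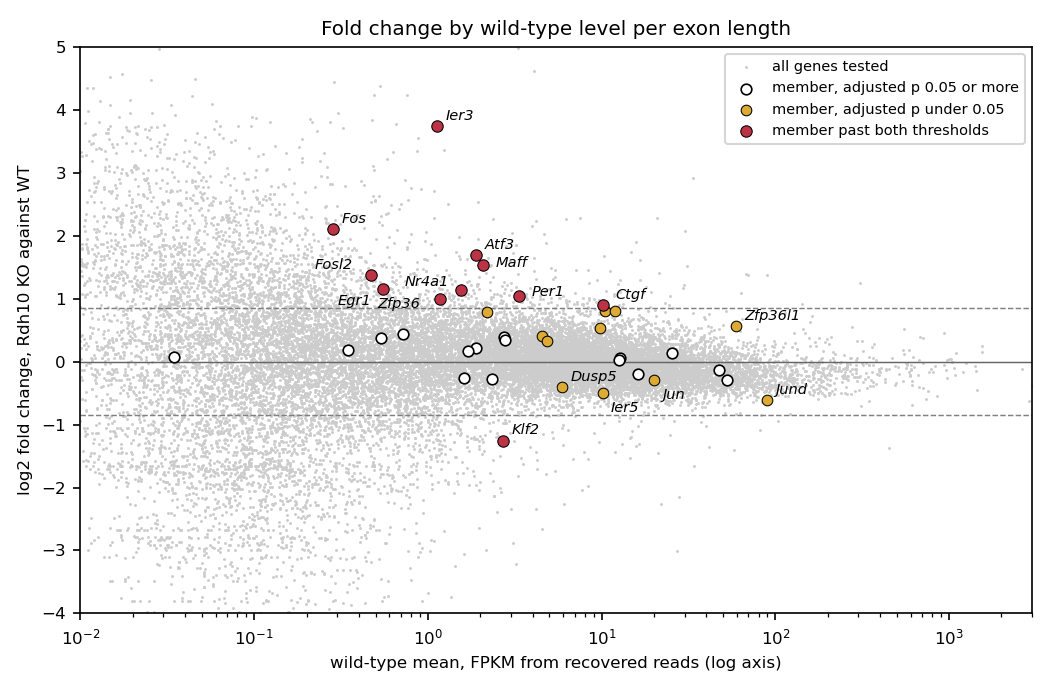
Log2 fold change of *Rdh10* KO against WT (vertical axis) against the WT mean in FPKM (logarithmic horizontal axis) for all genes tested (grey) and for the 38 genes above the limit of detection in WT (circles), with dashed lines at the cut-off of 0.85. The genes past both thresholds (red) lie between *Fos* and *Ctgf* in WT level, and grey points above 10 FPKM have a median of -0.11.

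The libraries of 1 group differed in how far the rise went. *Rdh10* KO replicate 1 was the lowest *Rdh10* KO library for 11 of the 11 genes called higher. The median log2 difference of these 11 from the WT mean was 1.03 in that library, 1.63 in replicate 2 and 1.53 in replicate 3, while over all 41 genes the medians were 0.44, 0.41 and 0.41. Without that library 12 genes were called higher and 1 lower. Its red cell markers summed to 51108 normalized counts, against 100685 to 156707 in the other 5 libraries, and its optic vesicle markers to 3146, against 4653 to 4936. The part of these differences in tissue in the values of the 41 genes was not tested.

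Summed markers of other cell types also differed between the groups. The 8 of craniofacial mesenchyme summed to 13738 to 13867 in WT and to 11144 to 11358 in *Rdh10* KO. Of these, 3 were called lower (*Alx1* and *Alx4* among them), against 0.886% of all genes. With an adjusted p under 0.05 alone, 1 was higher and 4 were lower, against 10.3% and 9.12% of all genes. Among genes with a WT mean above 100 the share was 17.4% in each direction. The 5 of platelets summed to 212 to 250 in WT and to 347 to 464 in *Rdh10* KO. At an adjusted p under 0.05, 3 of 5 were higher (10.3% of all genes were), and 2 were called higher, *Itga2b* and *Ppbp* (2.41% of all genes were). *Gp9* (log2 fold change 0.40) and *Gp1bb* (-0.24) did not pass the test. The sum of the 6 heart markers was 66.8 to 97.2 in WT and 107 to 268 in *Rdh10* KO. Most of it was *Actc1*, the 1 called higher (2.41% of all genes were), while the defining markers *Nppa* and *Myl2* were within the limit of detection in both groups. *Myl7* (log2 fold change -1.23, separate groups) and *Tnnt2* (-1.73) went the other way, and *Myh6* went up (1.16, separate groups). None of these passed the test by limma, and the edgeR quasi-likelihood test called 1 heart marker lower. Of the 10 placenta and decidua markers listed, 7 were in the deposited table. Of these 7, which summed to 90.2 to 126 in WT and to 127 to 176 in *Rdh10* KO, 3 were called higher (2.41% of all genes were). These were *Ascl2*, *Prl8a2* and *Prl3d1*, within the limit of detection in every WT library and at least 12.5-fold, 7.03-fold and 1.64-fold higher in *Rdh10* KO. *Prl8a2* and *Prl3d1*, at 0 in every WT library, passed the filter on low values only through *Rdh10* KO. None of the rest of the 7 passed the test, *Prl3b1* had a log2 fold change of -1.16 with separate groups, and the median of the 7 was -0.03. The 9 macrophage and leukocyte markers summed to 423 to 576 in WT and to 329 to 421 in *Rdh10* KO, with 0 of 9 past the threshold (limma, with 0 higher and 2 lower at an unadjusted p under 0.05, and 1 called lower by the edgeR quasi-likelihood test). The sums of the optic vesicle, forebrain, surface ectoderm and red cell markers overlapped between the groups. The part of these differences in the values of the 41 genes was not tested.

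Related genes were listed by pathway, outside the 41, also with earlier results of these data known. Of 37 other rapid response genes, 35 passed the filter, and the median log2 fold change was 0.34. With an adjusted p under 0.05 alone, 14 were higher and 3 lower, against 10.3% and 9.12% of all genes. Past both thresholds, 9 were called higher (2.41% of all genes were) and 1 lower (*Batf3*, against 0.886% of all genes). Among the 9 were *Bhlhe40*, *Tnfaip3*, *Gadd45b*, *Pim1*, *Klf9*, *Thbs1*, *Jdp2* and *Nfil3*. *Bhlhe40*, a transcriptional repressor of the clock and of the response to low oxygen, was at 50.1, 36.7 and 48.9 normalized counts in WT and at 453, 1284 and 1034 in *Rdh10* KO, with a log2 fold change of 4.23 ± 0.29 (limma, adjusted p = 9.27e-07). This list was led by a gene with a change far larger than that of the rest, as *Ier3* led those of the 41 above the limit of detection in WT. *Rdh10* KO replicate 1 was again the lowest of its group for *Bhlhe40*.

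The 26 genes that carry the signal to SRF and CREB (kinases, ELK and CREB factors and their coactivators) included 0 past both thresholds by limma and by the edgeR quasi-likelihood test. At an adjusted p under 0.05 alone 7 were higher (26.9%) and 1 was lower (*Map2k2*, named after its value was seen), against 10.3% and 9.12% of all genes and 17.4% in each direction among genes with a WT mean above 100, at an unadjusted p under 0.05 12 were higher and 3 lower, and the median was 0.11. The 15 cytoskeletal targets of SRF and MRTF had 2 genes called higher, *Acta2* and *Tagln* (13.3%, against 2.41% of all genes), and a median of 0.25. At an adjusted p under 0.05, 10 were higher (66.7%), against 10.3% of all genes and 17.4% of those with a WT mean above 100. All but *Cnn1* and *Fhl2* had a WT mean above 100. *Acta2*, smooth muscle actin, was at 201, 162 and 175 in WT and at 538, 828 and 1345 in *Rdh10* KO (log2 fold change 2.24 ± 0.23, limma, adjusted p = 2.95e-05). Of 10 YAP and TEAD targets and partners 2 were called higher (2.41% of all genes were), *Crim1* and *Ankrd1*. *Ankrd1* was within the limit of detection in WT and at least 4.30-fold higher in *Rdh10* KO, and passed the filter on low values only through *Rdh10* KO. With an adjusted p under 0.05 alone, 6 of the 10 were higher and 1 was lower, against 10.3% and 9.12% of all genes. The median was 0.40, or 0.28 without *Ankrd1*.

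**Figure D4:**
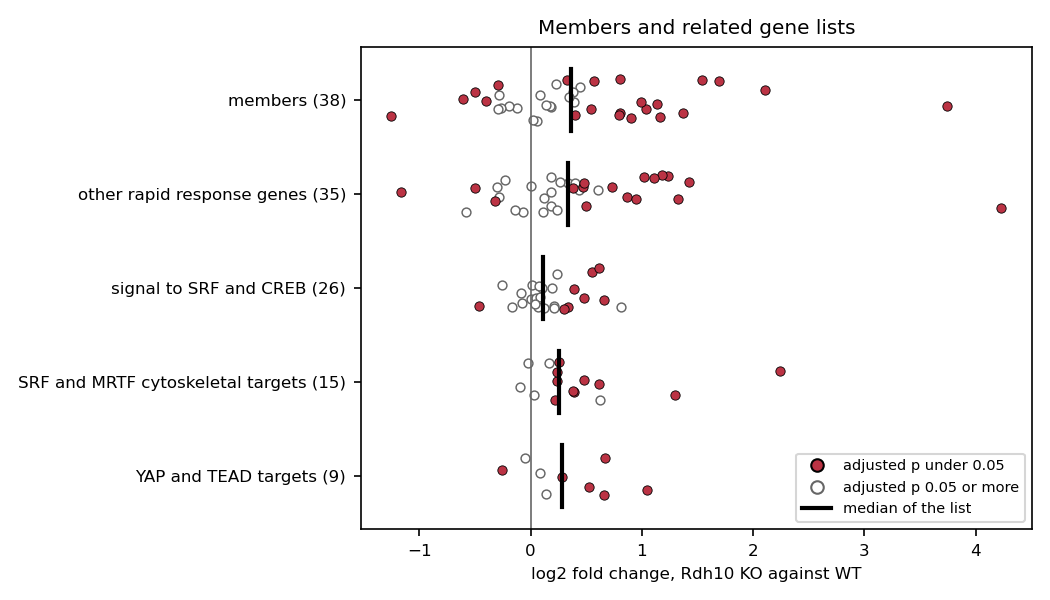
Log2 fold change of *Rdh10* KO against WT (horizontal axis) for the 38 of the 41 genes above the limit of detection in WT and for 4 lists of related genes, with the number plotted in brackets. Red points have an adjusted p under 0.05 (limma), bars are medians, and *Ier3* and *Bhlhe40* lie farthest to the right in their rows.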

How the data were processed

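Total RNA of E10 frontal head tissue was sequenced by the authors from directional, poly(A)-selected libraries, aligned to mm10 with TopHat and quantified by Expectation–Maximization. The deposited signal is named FPKM, but its values are whole reads (99.989% to 100% of the values of each library, within a tolerance of 0.0051) divided by 1 size factor per library (0.850 to 1.40), and are called normalized counts here. FPKM had been assumed when the tests were set, and limma was kept. *Rdh10* KO was compared with WT on log2(value + 0.1) for genes with a mean above 0.5 (limma 3.58.1, R 4.3.3, lmFit and eBayes with trend, no other term), with Benjamini–Hochberg adjustment. The recovered reads were tested with edgeR 4.0.16 and DESeq2 1.42.0. The scripts were tested on simulated data. Coordinates and exon lengths came from GENCODE mouse release 21 (GRCm38), which held 26288 of 26437 identifiers, and promoters from RefSeq. 1 line of the table names no gene and was left out.

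The genes and lists were chosen with earlier results of these data known. Every one of the 41 genes is accounted for, with values in each library for those past an adjusted p of 0.05, those with separate groups and the most abundant of each subfamily, and listed genes past both thresholds may be named. Results for some listed genes are not reported here. Alternatives were pseudocounts of 1 and 0.01, no filter, a mean above 10, quantile normalization, equal sums, limma without trend, no cut-off, the other tools, a block for the replicate number and leaving out each library. Whether the 3 pools of a group differ in litter is not given, so p-values measure the spread between pools.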

Additional observations from a re-analysis of the deposited data

How the results depend on the processing

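The counts of 11 genes higher and 1 lower moved by over 1.5 times in limma without the intensity trend, which gave 6 and 0, also with no cut-off on the fold change, and in which *Fos*, *Fosl2*, *Maff*, *Egr1*, *Zfp36* and *Klf2* were lost. With no cut-off 18 were higher and 5 lower. A block for the replicate number left 3 of the 5 lower and lost *Dusp1*, *Dusp5* and *Jun*. Same-numbered libraries did not deviate together (r from -0.074 to -0.026 over 15272 genes), so no pairing by number was seen in the values. Whether same-numbered pools share a litter or a preparation is not given, and these correlations cannot exclude it. The median of 0.39 was 0.31 after quantile normalization. Leaving out 1 library at a time gave medians of 0.35 to 0.42, 10 to 12 genes higher and 1 lower past both thresholds, and 3 to 5 lower at an adjusted p under 0.05.

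Over the fits without 1 library, *Fosl1* ranged from -0.998 to 1.98, *Fosb* from -0.41 to 0.91, *Myc* from -0.0061 to 0.10 and *Btg1* from -0.037 to 0.062 on the log2 scale. *Fosl1* reversed without WT replicate 2 or *Rdh10* KO replicate 1 (-0.26) or 2 (-0.54). *Fosb* reversed after quantile normalization (-0.010) and without WT replicate 3 (-0.40) or *Rdh10* KO replicate 1 (-0.41) or 2 (-0.26). *Myc* reversed without WT replicate 2 (-0.0061), and *Btg1* without WT replicate 1 (-0.020) or *Rdh10* KO replicate 2 (-0.037). None of these 4 passed the test. Of the other values of single genes, 627 kept their direction and side of the threshold, 44 lost and 9 gained it. The cause of these changes was not tested. *Egr2* was not tested with a mean above 10. Depth limits *Egr2*, *Egr3*, *Fosl1* and *Fosb*, with few reads in any library.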
